A study of Mus musculus with 9 samples.

Results

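A1G tumours were compared with normal cerebellum, with 3 libraries in each group, so that 6 of the 9 libraries of the series enter the comparison. The A1G tumours are primary medulloblastomas of the Sonic Hedgehog (SHH) kind, taken from mice of mixed strain that carried Math1-cre, the A1G allele and a heterozygous disruption of Ptch1 (written Math1-cre;A1G;Ptch1+/- in the labels). The labels do not spell out what the A1G allele is, and the design text names ATOH1, acting together with aberrant SHH signalling, as the driver of these tumours. Math1 is the older name of Atoh1, and Math1-cre expresses Cre recombinase in the granule cell lineage. The control group is cerebellum of wild-type adult C57BL/6 mice, so that strain and tissue cannot be told apart in the comparison. No age is given for the tumour-bearing mice. The other 3 libraries, primary tumours of Ptch1+/- mice, are used only to ask whether a change seen in A1G tumours was of the same size there. Both groups were whole tissue, and in such bulk samples fewer cells of a type and less RNA per cell cannot be told apart.

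The cerebellar granule neuron arises from progenitors in the external granule layer that divide after birth under Shh released by Purkinje cells. Shh binds the receptor Ptch1 and so frees Smo, which acts in the primary cilium to turn the Gli transcription factors into activators. Their targets include Gli1, Ptch1 itself, Mycn and the D cyclins. Atoh1 is the basic helix-loop-helix factor that keeps these progenitors dividing, and medulloblastomas of the SHH group are known to arise from them. Adult cerebellum has lost the external granule layer and consists mainly of mature granule neurons, together with Purkinje cells, interneurons and glia.

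RNA had been depleted of ribosomal RNA before the libraries were made, and the libraries held 2350941 to 5300936 fragments assigned to genes. Levels are normalised CPM (fragments of a gene per 1e+06 fragments of its library), given in the order of replicates 1, 2 and 3, with A1G tumours first wherever values are set against each other. Log2 fold changes are A1G tumours minus cerebellum from edgeR's quasi-likelihood test, with their standard error (SE), and a gene is called higher or lower at an adjusted p under 0.05 (Benjamini-Hochberg over all tested genes). The labels call the libraries of a group replicates and do not say that each came from another animal, so the p-values measure the spread between these libraries. A1G replicate 2 stood apart from its group. Among 10183 genes with a mean of at least 10 CPM in A1G tumours it was more than 2-fold above both other tumours in 713 and more than 2-fold below both in 688, against 163 and 411 for replicate 1 and 183 and 164 for replicate 3. It was also the library with Y-linked RNA, as Ddx3y stood at 1.12, 54.1 and 0.416 CPM in A1G tumours and 1.06, 0.306 and 0 CPM in cerebellum. Xist, made from the inactive X chromosome, stood at 2278, 3.796 and 4264 CPM in A1G tumours and 486, 649.5 and 1024 CPM in cerebellum. The part of sex in the results was not tested. Each sequencing chip carried 3 libraries, per the labels, and the labels do not tell which. Whether a chip and a group coincide is therefore not known, and the part of the chip in the results was not tested. As a check of the tissue labels, every cerebellum library held the Purkinje cell gene Pcp2 and the granule cell gene Gabra6 at high levels and every A1G library held Atoh1 above every cerebellum, as given below. Atoh1 does not tell A1G from Ptch1 tumours, so the A1G label itself was not checked by it.

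Of 14619 genes tested, 2109 were higher in A1G tumours (14.4%) and 2330 lower (15.9%), together 30.4%, and 4183 of them (28.6%) differed at least 2-fold. The A1G and cerebellum libraries did not overlap in 6743 genes (46.1%). The median log2 change over all tested genes was 0.02, which is the value against which the medians of the gene lists below are read. Leaving out cerebellum replicate 2 brought the counts to 1274 higher, 1378 lower and 2652 at least 2-fold, and no gene called in all 6 libraries was called in the opposite direction in that fit. The plot of list members by list shows where the changes gathered, with the lists of mitosis, histones and replication at the top and those of oligodendrocytes and Purkinje cells at the bottom.

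**Figure D1:**
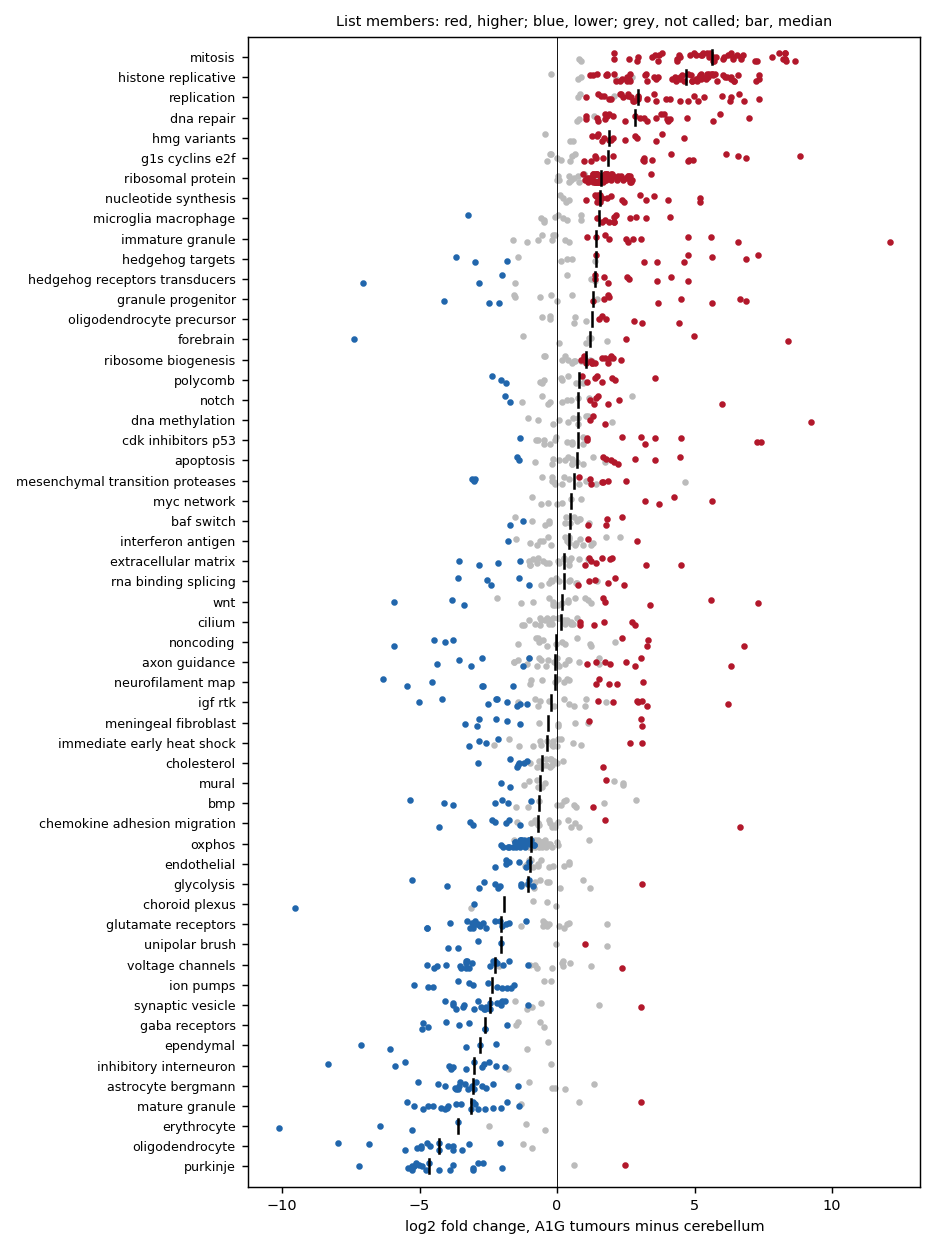
Log2 fold change of every tested member of the gene lists with at least 5 tested members, A1G tumours minus cerebellum (edgeR). The list of genes often used as references is left out. Each point is a gene, red where higher and blue where lower at an adjusted p under 0.05 and grey where not called, and the black bar is the list's median. Lists are ordered by their median, from -4.65 for Purkinje cells to 5.62 for mitosis.

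Atoh1 was high in every A1G tumour. It stood at 658, 392 and 299 CPM in A1G tumours and 0, 10.1 and 16.5 CPM in cerebellum (chromosome 6, 64729125 to 64731245, mm10), without overlap, and rose (log2 change 5.64, SE 0.94, adjusted p = 0.00157). Reads of the endogenous gene and of any introduced copy are not separated in these values. Ptch1, the gene with the disrupted copy (chromosome 13, 63508328 to 63573460), stood at 80.3, 304 and 60.8 CPM in A1G tumours and 56.4, 106 and 182 CPM in cerebellum. These groups overlapped, replicate 2 was the highest tumour, and the log2 change of 0.37 (SE 0.60, adjusted p = 0.678) turned to -0.69 without that library. Counts per gene do not tell the intact allele from the disrupted one. Atoh1 gave a log2 change of 6.51 without cerebellum replicate 3.

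Among 16 tested ligands, receptors and transducers of the Hedgehog pathway, 9 were higher and 3 lower, with a median log2 change of 1.39, against 14.4% higher and 15.9% lower among all tested genes. The ligand Shh had no fragment in any of the 3 tumours against 2.91, 6.13 and 5.62 CPM in cerebellum, which puts it at least 4.43-fold lower when the tumours are set at a floor of 3 fragments per library, as is done for every gene without a fragment in a group. The other members that fell were the coreceptor gene Cdon and Spop, an adaptor of the ubiquitin ligase that acts on Gli proteins. Smo, the signal transducer held back by Ptch1, stood at 249.9, 103 and 151 CPM in A1G tumours against 30.2, 30.9 and 24.9 CPM in cerebellum and rose (log2 change 2.55, SE 0.36, adjusted p = 5.90e-04). All 3 tumours lay above all 3 cerebella for this gene.

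The Gli factors moved unequally. Gli1, the activator that is itself switched on by the pathway (chromosome 10, 127329882 to 127341579), stood at 189, 109 and 154 CPM in A1G tumours and 8.21, 12.9 and 14.9 CPM in cerebellum and rose (log2 change 3.64, SE 0.36, adjusted p = 7.78e-05). Gli2, the main activator downstream of Smo (chromosome 1, 118834061 to 119054405), stood at 203, 90.5 and 152 CPM against 5.299, 7.97 and 11.6 CPM and rose (log2 change 4.14, SE 0.43, adjusted p = 1.05e-04). Gli3, which serves mostly as a repressor, stood at 3.72, 5.38 and 2.91 CPM in A1G tumours and 7.15, 10.7 and 17.3 CPM in cerebellum, lower in every tumour, and its log2 change of -1.53 (SE 0.53) lay just outside the threshold (adjusted p = 0.0511). Gli1 and Gli2 were high in all 3 tumours, with the lowest tumour value in replicate 2 in each case.

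Of 16 tested genes listed as Hedgehog targets, 8 were higher and 3 lower, with a median log2 change of 1.41, or 0.73 without A1G replicate 2. Mycn, the Myc family factor of granule progenitors (chromosome 12, 12936093 to 12941836), stood at 519.9, 407 and 365 CPM in A1G tumours and 9.01, 7.05 and 10.04 CPM in cerebellum and rose (log2 change 5.62, SE 0.34, adjusted p = 1.01e-05). Ccnd1, a D cyclin that opens G1 (chromosome 7, 144929931 to 144939831), stood at 547, 281 and 393 CPM against 41.9, 45.04 and 48.4 CPM and rose (log2 change 3.17, SE 0.33, adjusted p = 1.03e-04). Its relative Ccnd2 (chromosome 6, 127125162 to 127152188) stood at 1188, 683 and 988 CPM against 6.62, 7.66 and 9.84 CPM and rose (log2 change 6.88, SE 0.40, adjusted p = 9.47e-06). Sfrp1, a secreted modulator of Wnt ligands, was at 1161, 129.7 and 908 CPM in A1G tumours against 4.77, 6.43 and 2.81 CPM, with replicate 2 far below the other tumours and still above every cerebellum (log2 7.31). The members that fell were Prdm6, Rab33a and Igf2. The GLI consensus letters GACCACCCA were searched on both strands in the 250 bases before each start. They were in none of the 11 target windows and 16 receptor and transducer windows that RefSeq gave. These windows covered 8 of 16 target genes and 14 of 18 listed receptor and transducer genes, and Gli1 had no window. The letters were in 0.192% of the windows of all tested genes, a share at which so few windows would seldom hold them. Of the 26 tested genes that held them 9 were higher and 3 lower, against 14.4% and 15.9% of all tested genes, including those without a window. A link between the letters and these changes was not tested.

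**Figure D2:**
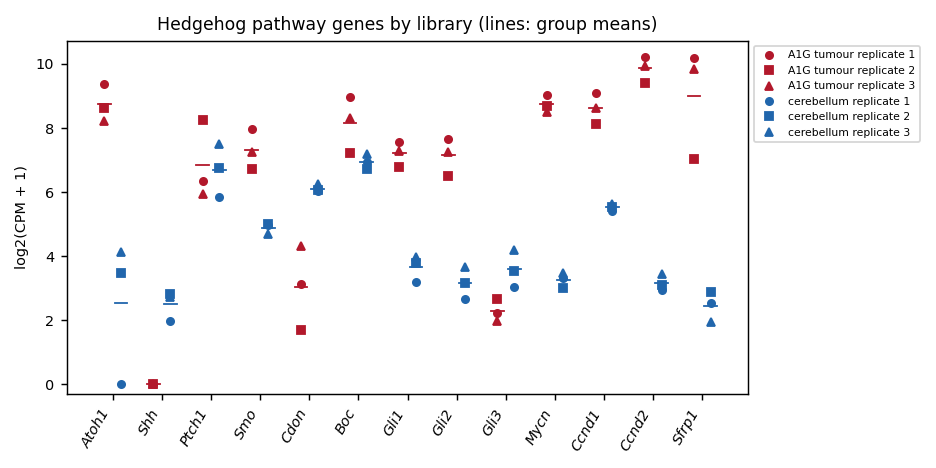
Level of Hedgehog pathway genes in each library as log2(CPM + 1), with A1G tumours in red and cerebellum in blue, a symbol per replicate and a line at the mean of the group's log values. Atoh1, Gli1, Gli2, Mycn, Ccnd1, Ccnd2 and Sfrp1 have all tumours above all cerebella, Shh has no fragment in any tumour, and Ptch1 overlaps.

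Genes of the cell cycle rose in large numbers. Of 26 tested G1/S cyclins, kinases and E2F family genes 18 were higher and 0 lower (median log2 1.84), of 36 replication genes 33 and 0 (median 2.96), and of 50 mitosis genes 48 and 0 (median 5.62, or 5.55 with members without a fragment in cerebellum set at the bound that 3 fragments per library give). The mitosis median was 4.87 without A1G replicate 1 and 4.75 with limma. The mean log2(CPM + 1) over the mitosis list was 6.77, 5.84 and 6.35 in the A1G tumours and 1.95, 1.81 and 1.71 in the cerebella, so that replicate 2 was the lowest tumour and every tumour was far above every cerebellum. Mki67, which codes for the Ki-67 protein that coats mitotic chromosomes, stood at 3506, 629 and 2628 CPM in A1G tumours and 5.56, 7.35 and 3.82 CPM in cerebellum and rose (log2 change 8.67, SE 0.76, adjusted p = 4.39e-05). Top2a, the topoisomerase that untangles replicated DNA, stood at 517, 275 and 459.5 CPM against 1.32, 1.84 and 2.21 CPM and rose (log2 change 7.82, SE 0.44, adjusted p = 9.47e-06). Cdk6, the kinase partner of the D cyclins, stood at 415, 236 and 208 CPM in A1G tumours against 0.795, 0.613 and 0.402 CPM in cerebellum (log2 8.84). None of these genes exceeded 8 CPM in any cerebellum. The microcephaly gene Aspm, needed for spindle orientation, was at 892, 194 and 593 CPM against 0.5299, 2.45 and 2.21 CPM (log2 8.30).

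The start-proximal sequences of a few of these genes are shown because their lists rose together and their windows hold letters known from cell cycle promoters. In each, the 250 bases before the RefSeq start (GRCm38.p6, which is mm10) are written 5′ to 3′ on the gene's own strand. Capitals mark the E2F-like letters TTTNNCGC or their reverse complement in the first 3, and the CHR letters TTTGAA and the CCAAT letters, on either strand, in the last 3. Coordinates are chr1:128359706-128359955, minus strand for Mcm6, a subunit of the replicative helicase, chr11:98907901-98908150, plus strand for Cdc6, which loads that helicase, chr12:12941837-12942086, minus strand for Mycn, chr7:135716380-135716629, minus strand for Mki67, chr11:99024190-99024439, minus strand for Top2a and chr10:69352913-69353162, minus strand for Cdk1, the kinase that starts mitosis.
Mcm6: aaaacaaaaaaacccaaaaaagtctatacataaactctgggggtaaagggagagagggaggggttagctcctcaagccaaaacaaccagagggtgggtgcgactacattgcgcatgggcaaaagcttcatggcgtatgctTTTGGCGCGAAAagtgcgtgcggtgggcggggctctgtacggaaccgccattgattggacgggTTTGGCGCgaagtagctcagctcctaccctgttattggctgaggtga
Cdc6: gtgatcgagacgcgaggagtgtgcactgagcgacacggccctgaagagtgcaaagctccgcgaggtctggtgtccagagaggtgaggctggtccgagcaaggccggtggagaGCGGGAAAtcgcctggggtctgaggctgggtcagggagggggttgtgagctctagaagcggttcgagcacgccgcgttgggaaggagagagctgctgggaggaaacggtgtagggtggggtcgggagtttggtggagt
Mycn: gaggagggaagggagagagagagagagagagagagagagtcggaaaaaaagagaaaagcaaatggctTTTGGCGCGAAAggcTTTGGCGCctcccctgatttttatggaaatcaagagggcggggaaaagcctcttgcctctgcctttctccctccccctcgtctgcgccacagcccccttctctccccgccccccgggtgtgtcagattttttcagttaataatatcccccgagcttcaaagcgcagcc
Mki67: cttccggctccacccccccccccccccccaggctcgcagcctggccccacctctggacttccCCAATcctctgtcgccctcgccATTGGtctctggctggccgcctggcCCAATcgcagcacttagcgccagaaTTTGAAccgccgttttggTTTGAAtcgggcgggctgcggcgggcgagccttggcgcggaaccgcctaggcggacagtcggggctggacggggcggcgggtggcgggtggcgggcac
Top2a: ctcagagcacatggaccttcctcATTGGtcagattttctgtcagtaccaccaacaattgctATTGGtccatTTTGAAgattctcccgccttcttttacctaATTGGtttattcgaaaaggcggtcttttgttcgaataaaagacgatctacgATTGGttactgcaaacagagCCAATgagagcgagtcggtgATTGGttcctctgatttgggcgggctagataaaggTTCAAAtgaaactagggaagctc
Cdk1: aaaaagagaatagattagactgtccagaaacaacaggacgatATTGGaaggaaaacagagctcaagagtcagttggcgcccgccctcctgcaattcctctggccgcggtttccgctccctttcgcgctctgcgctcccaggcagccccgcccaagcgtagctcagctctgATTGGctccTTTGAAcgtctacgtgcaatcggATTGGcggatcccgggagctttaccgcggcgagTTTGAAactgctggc

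In the windows of all tested genes the E2F-like letters stood in 6.55%, the CHR letters in 10.4% and the CCAAT letters in 34.8%, out of 13574 windows of 10593 genes. Of the 24 windows of G1/S genes 33.3% held the E2F-like letters, as did 23.5% of the 34 replication windows and 11.1% of the 45 mitosis windows. The CHR letters were in 35.6% and the CCAAT letters in 77.8% of the mitosis windows. In the replication windows these shares were 14.7% and 55.9%. High shares also occurred outside the cell cycle lists. The CCAAT letters were in 77.8% of the 18 cholesterol windows as well, a list with 7 genes lower and 1 higher. The E2F-like letters reached 21.4% of the 14 noncoding RNA windows, above the mitosis share and below the G1/S share. The CHR letters reached 26.7% of the 15 forebrain windows, below the mitosis share. A match is a description of letters and was not tied to binding of any factor in these data. Mcm6 and Cdk1 were chosen for display after their values were seen. Mcm6 stood at 250.3, 139 and 168 CPM in A1G tumours against 2.65, 3.68 and 2.41 CPM in cerebellum (log2 5.997). Cdk1 stood at 33.8, 40.5 and 22.1 CPM against 0, 0.613 and 0 CPM (edgeR adjusted p = 1.45e-04). The cerebellum value of 0.613 CPM is 2 fragments in a single library. Cdc6, with 1 E2F-like match in the window above, stood at 78.5, 34.2 and 46.2 CPM in A1G tumours and 0.5299, 0.613 and 0.402 CPM in cerebellum (log2 6.62). All 3 were at most at a few CPM in cerebellum and above 20 CPM in every tumour.

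Further genes of DNA synthesis followed the same direction. Of 27 tested repair and checkpoint genes 24 were higher and 0 lower (median log2 2.83), and of 24 genes of nucleotide synthesis 20 and 0 (median 1.57). Brca1, of homologous recombination, stood at 308, 82.6 and 266 CPM in A1G tumours and 5.03, 4.902 and 3.01 CPM in cerebellum (log2 5.67). Exo1, an exonuclease of mismatch and break repair, stood at 130.2, 37.6 and 96.6 CPM against 0, 0.919 and 1.004 CPM (log2 6.99). Exo1 was close to 0 in every cerebellum and Brca1 at 5 CPM or somewhat less. Rrm2, the regulated subunit of ribonucleotide reductase, was at 83.7, 61.1 and 43.3 CPM against 2.65, 2.14 and 0.402 CPM (log2 5.21). In each of these genes but Rrm2 replicate 2 was the lowest tumour, and no tumour overlapped a cerebellum.

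Some inhibitors of the cycle rose as well. Of 22 tested genes for Cdk inhibitors and the p53 pathway, 9 were higher and 1 lower, Phlda3 (median log2 0.74). Cdkn2a, which codes for p16 and p19Arf, had no fragment in cerebellum and stood at 2.97, 13.3 and 2.497 CPM in A1G tumours, at least 8.098-fold higher, with most of it in replicate 2. Cdkn2b, an inhibitor of Cdk4 and Cdk6, stood at 18.96, 9.81 and 24.1 CPM against 0.265, 0.919 and 1.004 CPM (log2 4.50). Eda2r, a receptor of the tumour necrosis factor family induced by p53, stood at 82.6, 44.3 and 85.7 CPM in A1G tumours against 0, 1.23 and 0.201 CPM in cerebellum (log2 7.26). All of them were at about 1 CPM or less in each cerebellum. Of 23 apoptosis genes 8 were higher and 2, the survival genes Bcl2l1 and Bcl2l2, lower (median 0.71). Bid, a trigger of the mitochondrial pathway, stood at 15.6, 38.6 and 17.5 CPM against 0.5299, 0.919 and 1.61 CPM (log2 4.46). Apaf1, the core of the apoptosome, stood at 47.2, 39.5 and 38.7 CPM against 6.09, 4.29 and 6.83 CPM (log2 2.85). Eda2r gave a log2 change of 8.88 without cerebellum replicate 2.

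Histone genes rose nearly as a block. Of 66 tested replication-dependent histone genes 61 were higher and 0 lower, with a median log2 change of 4.70. Hist1h2bn, an H2B gene, stood at 343, 257 and 442 CPM in A1G tumours and 2.12, 2.45 and 1.81 CPM in cerebellum (log2 7.34). Hist1h3c, an H3 gene, stood at 246, 148 and 245 CPM against 1.85, 1.84 and 2.81 CPM (log2 6.57). Near-identical copies share reads, so values of single histone genes are uncertain. Most of these mRNAs lack a poly(A) tail. Of 17 high mobility group genes and histone variants 14 were higher and 0 lower (median 1.90), among them Hmgb2, a chromatin protein of dividing cells, at 154, 202 and 183 CPM against 5.83, 8.27 and 7.63 CPM (log2 4.63). H2afx, whose protein is phosphorylated at DNA breaks, stood at 176, 277 and 157 CPM against 12.98, 17.5 and 19.3 CPM (log2 3.61).

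Of 15 DNA methylation genes 4 were higher and 0 lower (median log2 0.76), against 14.4% and 15.9% of all tested genes. Uhrf1, which brings the maintenance methyltransferase to replicated DNA, stood at 239, 263 and 169.8 CPM in A1G tumours and 0.5299, 0 and 0.402 CPM in cerebellum and rose (log2 change 9.25, SE 0.53, adjusted p = 9.47e-06). Dnmt1, that methyltransferase, stood at 396, 160.4 and 398 CPM against 111, 101 and 76.1 CPM (log2 1.73). Uhrf1 was nearly undetected in cerebellum, whereas Dnmt1 was expressed in both tissues. Higher members of this list numbered 2 without cerebellum replicate 2. Among 20 Polycomb genes 8 were higher and 3 lower (median 0.79), the lower share being close to that over all tested genes. Ezh2, the catalytic subunit, rose from 30.7, 25.4 and 17.7 CPM in cerebellum to 119, 119 and 78.2 CPM in A1G tumours (log2 2.10) and the chromobox gene Cbx2 from 5.83, 7.05 and 8.03 CPM to 102, 42.1 and 108 CPM (log2 3.58). Its paralogs Cbx7, at 7.81, 9.49 and 13.7 CPM in A1G tumours and 42.4, 63.7 and 52.8 CPM in cerebellum (log2 -2.36), and Cbx6, at 92.6, 77.5 and 67.8 CPM against 287, 307 and 397 CPM (log2 -2.06), fell. The groups did not overlap in any of these 4 genes. Higher Polycomb genes numbered 5 without A1G replicate 1 or cerebellum replicate 2. Of 19 genes of the BAF remodelling complex, which exchanges subunits as progenitors become neurons, 4 were higher and 2 lower, not far from the shares over all tested genes. Actl6a, a progenitor subunit, stood at 34.2, 55.7 and 35.8 CPM in A1G tumours and 13.2, 13.5 and 10.04 CPM in cerebellum (log2 1.78). Higher BAF genes numbered 7 without cerebellum replicate 3.

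RNA-binding proteins showed changes in both directions, with 6 of 22 tested genes higher (27.3%), 5 lower (22.7%) and a median log2 change of 0.24. Over all tested genes the shares were 14.4% and 15.9%. Ptbp1, which represses neuronal exons in progenitors, stood at 243, 205 and 174 CPM in A1G tumours and 38.4, 33.4 and 43.2 CPM in cerebellum and rose (log2 change 2.43, SE 0.28, adjusted p = 1.75e-04). Rbfox1, a splicing factor of mature neurons, stood at 58.8, 127 and 123 CPM against 535, 485 and 631 CPM and fell (log2 change -2.42, SE 0.35, adjusted p = 7.15e-04). The groups did not overlap in either gene.

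Genes for protein synthesis rose, while among genes of energy metabolism more fell than rose. In the Myc network 4 of 11 tested genes rose and 0 fell, namely Mycn, Mycl1, Myc and the antagonist gene Mxd3. Myc stood at 23.4, 62.6 and 17.9 CPM in A1G tumours and 2.38, 1.53 and 3.82 CPM in cerebellum (log2 3.70), with the highest value in replicate 2. Mycl1 stood at 206, 101 and 102 CPM against 11.9, 5.82 and 3.82 CPM (log2 4.25). All 3 Myc family members were therefore higher in these tumours. Of 78 cytosolic ribosomal protein genes 61 were higher and 0 lower (median log2 1.58). Rps2, of the small subunit, stood at 147, 136 and 163 CPM in A1G tumours and 23.6, 31.3 and 13.5 CPM in cerebellum (log2 2.71). Rpl32, of the large subunit, stood at 148, 229 and 104 CPM against 21.5, 26.3 and 27.3 CPM (log2 2.68). These genes have many processed pseudogenes, which can share their reads. Of 27 genes of ribosome assembly 16 were higher (median 1.05), and the nucleolar helicase gene Ddx21 rose from 47.95, 35.5 and 37.1 CPM to 170.3, 141 and 150.3 CPM (log2 1.93). Higher assembly genes numbered 10 without A1G replicate 1 and 6 without cerebellum replicate 2. Myc gave a log2 change of 2.97 without A1G replicate 2.

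Of 73 tested nuclear genes for oxidative phosphorylation 0 were higher and 28 lower (median log2 -0.93). Cox5b, a subunit of cytochrome c oxidase, stood at 17.1, 27.2 and 16.2 CPM in A1G tumours and 67.8, 75.98 and 67.9 CPM in cerebellum (log2 -1.80). Unlike the synthesis genes, most members of this list were not called. Lower genes on this list numbered 13 without A1G replicate 1, 9 without A1G replicate 3, 14 without cerebellum replicate 1 and 10 without cerebellum replicate 2. Of 22 glycolysis genes 12 were lower and 1 higher (median -1.05). The gene that rose was Hk2, the hexokinase of growing cells, at 193, 44.3 and 155 CPM in A1G tumours against 15.4, 13.2 and 17.1 CPM (log2 3.10). Eno2, the neuronal enolase, stood at 22.7, 20.6 and 61.2 CPM against 555, 532 and 593 CPM (log2 -4.01). Aldoc, the aldolase of Purkinje cells and astrocytes, stood at 60.99, 53.1 and 79.5 CPM against 3303, 2204 and 2046 CPM (log2 -5.29). Both are enzymes of mature brain cells. Of 22 cholesterol genes 7 were lower and 1 higher (median -0.57). The exporter gene Abca1, which rose, stood at 203, 174 and 209 CPM against 54.8, 62.2 and 65.3 CPM (log2 1.68). Lower cholesterol genes numbered 3 without cerebellum replicate 2. Eno2 gave a log2 change of -4.68 without A1G replicate 3.

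The granule lineage separated by stage. Of 19 tested progenitor genes 9 were higher and 3 lower (median log2 1.29), of 21 genes of the newly formed granule neuron 12 and 0 (median 1.42), and of 23 mature granule neuron genes 1 and 20 (median -3.15, or -3.99 without A1G replicate 3). Eya2 and Meis2 were among the progenitor genes that fell. Barhl1, a homeobox factor downstream of Atoh1, stood at 288, 540.0 and 254 CPM in A1G tumours and 7.95, 16.9 and 22.3 CPM in cerebellum (log2 4.51). Insm1, a zinc finger factor of neurogenic progenitors, stood at 163, 152 and 223 CPM against 1.06, 0 and 3.01 CPM (log2 6.87), and the chemokine receptor gene Cxcr4, which holds progenitors under the meninges, at 121, 77.8 and 72.4 CPM against 1.06, 1.23 and 0.402 CPM (log2 6.67). Insm1 gave a log2 change of 8.22 without cerebellum replicate 3.

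Among the immature neuron genes, Nhlh1, a helix-loop-helix factor of cells leaving the cycle, had no fragment in cerebellum and stood at 80.3, 308 and 99.5 CPM in A1G tumours, at least 211-fold higher. Sox11, a factor of new neurons, stood at 990.3, 929 and 1287 CPM in A1G tumours and 13.8, 11.3 and 8.23 CPM in cerebellum (log2 6.59). Dcx, the microtubule protein doublecortin of migrating neurons, stood at 703, 535 and 1222 CPM against 12.98, 12.9 and 24.3 CPM (log2 5.60). Replicate 2 was the highest tumour for Nhlh1 and the lowest for Dcx. The mean log2(CPM + 1) over the immature list was 7.28, 8.18 and 8.07 in the tumours and 6.15, 6.25 and 6.35 in the cerebella. Of the 21 genes 9 were not called.

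Among the mature granule genes, Gabra6, the GABA receptor subunit that marks these cells, stood at 7.81, 9.49 and 41.2 CPM in A1G tumours and 624, 619 and 482 CPM in cerebellum and fell (log2 change -4.89, SE 0.62, adjusted p = 3.32e-04). Pvalb is on this list but is a calcium buffer of Purkinje cells and interneurons, so it does not mark granule neurons. It stood at 11.2, 12.02 and 27.1 CPM against 649, 563 and 613 CPM (log2 -5.19). Replicate 3 held the most of both genes among the tumours. The mean log2(CPM + 1) over the list was 4.85, 5.49 and 6.38 in A1G tumours and 8.57, 8.71 and 8.85 in cerebella. The exception was Slc17a6, the vesicular glutamate transporter of young granule neurons and of other excitatory cells, which stood at 56.9, 214 and 314 CPM in A1G tumours and 21.7, 22.1 and 26.1 CPM in cerebellum (log2 3.06). Gabra6 gave a log2 change of -6.03 without A1G replicate 3.

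**Figure D3:**
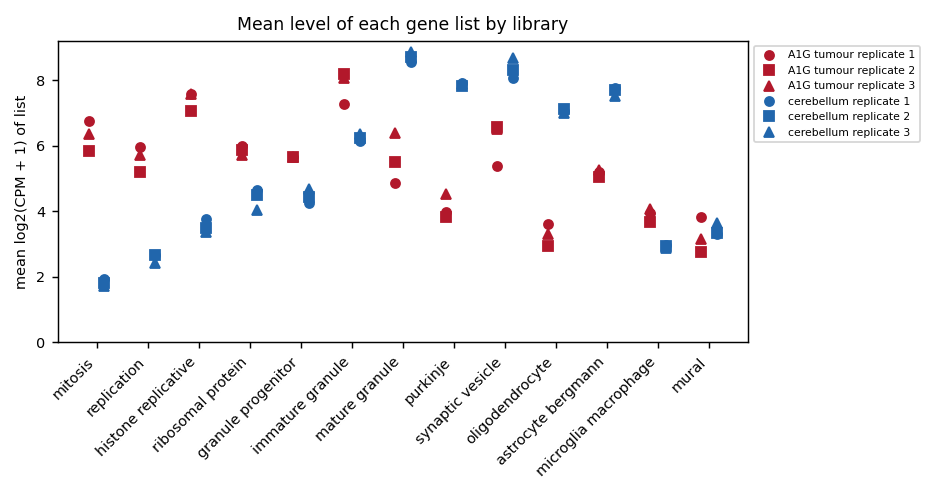
Mean log2(CPM + 1) over the members of 13 gene lists in each library, A1G tumours in red and cerebellum in blue, with a symbol per replicate. The mitosis list lies between 5.84 and 6.77 in tumours and at most at 1.95 in cerebellum, the mature granule list between 4.85 and 6.38 against at least 8.57, and the mural list overlaps, with A1G replicate 1 the highest.

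Marker RNA of other cerebellar neurons was lower in the tumours. Of 21 Purkinje cell genes 19 were lower and 1 higher, with a median log2 change of -4.65. Pcp2, nearly restricted to Purkinje cells and retinal bipolar cells, stood at 1.12, 0.316 and 3.33 CPM in A1G tumours and 191, 163 and 329.7 CPM in cerebellum (log2 -7.22). Car8, which binds the inositol trisphosphate receptor, stood at 30.5, 15.2 and 55.8 CPM against 1878, 1468 and 1024 CPM (log2 -5.43). The single member that rose was Foxp2, a forkhead factor, at 117, 48.1 and 48.3 CPM in A1G tumours against 15.6, 12.6 and 10.4 CPM (log2 2.46). The summed level of the list was 821 to 1221 CPM over the tumours and 12894 to 16956 CPM over the cerebella. Pcp2 gave a log2 change of -8.28 without A1G replicate 3.

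Of 15 genes of inhibitory interneurons 13 were lower and 0 higher (median log2 -3.03, or -2.74 with members without a fragment in a group set at their bound). Slc6a5, the glycine transporter of Golgi and Lugaro cells, had no fragment in any tumour against 11.1, 11.03 and 13.7 CPM in cerebellum, at least 10.8-fold lower. Gad2, an enzyme of GABA synthesis, stood at 4.46, 8.54 and 6.66 CPM in A1G tumours and 103, 91.3 and 106 CPM in cerebellum (log2 -3.92). Of 7 tested genes of unipolar brush cells 4 were lower and 1, Pde1c, higher (median -2.06). Calb2, the calcium buffer calretinin, which granule cells make too, stood at 7.81, 8.86 and 29.6 CPM against 273, 248 and 198 CPM (log2 -3.97). Calb2 gave a log2 change of -4.82 without A1G replicate 3.

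Glial lists split between mature cells and precursors. Of 18 genes of mature oligodendrocytes 16 were lower and 0 higher (median log2 -4.30, or -4.12 with members without a fragment at their bound), and of 22 genes of astrocytes and Bergmann glia 17 and 0 (median -3.07). Of 12 oligodendrocyte precursor genes 6 were higher and 0 lower (median 1.29). Mobp, a myelin protein, stood at 5.21, 2.53 and 4.58 CPM in A1G tumours and 476, 506 and 443 CPM in cerebellum (log2 -6.86). Mag, the myelin-associated glycoprotein, stood at 12.3, 3.48 and 8.74 CPM against 263, 266 and 298 CPM (log2 -5.09). Hopx, a homeodomain protein of Bergmann glia, stood at 4.09, 8.86 and 8.32 CPM against 106, 92.8 and 85.9 CPM (log2 -3.73). Ntsr2, a neurotensin receptor of astrocytes, stood at 3.72, 2.21 and 2.08 CPM against 48.5, 49.6 and 65.9 CPM (log2 -4.34). Every tumour was below every cerebellum for these 4 genes. Pdgfra, the growth factor receptor of the precursors and also of fibroblasts, stood at 602, 113 and 596 CPM in A1G tumours and 57.2, 56.4 and 38.8 CPM in cerebellum (log2 3.11), and replicate 2 held the least among tumours. C1ql1, a secreted complement-like protein, stood at 98.9, 225 and 74.1 CPM against 3.97, 4.29 and 9.84 CPM (log2 4.43), with the most in replicate 2. The lineage factors Olig1 and Olig2 were not called. C1ql1 gave a log2 change of 3.82 without A1G replicate 2. C1ql1 gave a log2 change of 5.01 without cerebellum replicate 3.

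Markers of immune cells moved in part. Of 22 genes of microglia and macrophages 12 were higher and 1 lower (median log2 1.54). Cd68, a lysosomal protein of phagocytes, stood at 8.55, 18.7 and 18.3 CPM in A1G tumours and 2.38, 1.23 and 2.41 CPM in cerebellum (log2 2.88). Ly86, which pairs with a Toll-like receptor relative on these cells, stood at 38.3, 5.38 and 15.4 CPM against 2.12, 1.84 and 2.21 CPM (log2 3.23). The genes that define resting microglia, Cx3cr1, P2ry12 and Tmem119, were not called. Lyve1, a hyaluronan receptor of lymphatic cells and of perivascular macrophages, was the member that fell, at 0, 0.949 and 0 CPM against 3.18, 2.76 and 4.82 CPM (adjusted p = 0.0363). The summed level of the list ran from 463 to 664 CPM in tumours and from 227 to 246 CPM in cerebella. T and NK cell genes summed to 5.41 to 6.01 CPM in tumours and 3.68 to 7.43 CPM in cerebella and 3 of them were abundant enough to test. Of 23 tested interferon and antigen presentation genes 2 were higher and 1 lower (median 0.43). These shares of 8.7% and 4.35% lay below the 14.4% and 15.9% of all tested genes. Ifit2 stood at 87.02, 28.2 and 47.4 CPM in A1G tumours against 8.74, 7.35 and 5.82 CPM (log2 2.89). Higher interferon and antigen genes numbered 1 without A1G replicate 1, A1G replicate 3, cerebellum replicate 2 or cerebellum replicate 3 and 4 without A1G replicate 2. Ly86 gave a log2 change of 2.32 without A1G replicate 1. Lyve1 did not pass without A1G replicate 1 (adjusted p = 0.0891) or without A1G replicate 3 (adjusted p = 0.0883).

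Vessel markers were lower in part. Of 20 endothelial genes 7 were lower and 0 higher (median log2 -0.99), while Pecam1, Kdr and Cdh5 were not called. Tek, the angiopoietin receptor, stood at 2.603, 8.54 and 5.83 CPM in A1G tumours and 34.2, 22.1 and 26.3 CPM in cerebellum (log2 -2.26). Abcb1a, an efflux pump of the blood-brain barrier, stood at 15.2, 9.17 and 21.6 CPM against 86.9, 42.6 and 38.8 CPM (log2 -1.87). Lower endothelial genes numbered 4 without A1G replicate 1, A1G replicate 3 or cerebellum replicate 3 and 3 without cerebellum replicate 2. Of 12 mural cell genes 2 were lower and 1 higher (median -0.62), near the shares over all tested genes. Among them Vtn, the vitronectin of pericytes, stood at 45.4, 18.03 and 33.3 CPM in A1G tumours against 107, 105 and 105 CPM (log2 -1.72). Lower mural genes numbered 1 without A1G replicate 1, A1G replicate 3 or cerebellum replicate 3. Globin RNA was lower. Hbb-b1 had no fragment in any A1G tumour against 48.2, 51.5 and 24.3 CPM in cerebellum, at least 37.4-fold lower. It had none in any Ptch1 tumour either. The tumours and the cerebella differ in strain, and the part of strain in this gene was not tested. In the list 4 of 7 erythrocyte genes fell, globin copies that share reads. Lower erythrocyte genes numbered 2 without cerebellum replicate 3.

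Markers of tissues that border the cerebellum were low in tumours or varied by library. Ttr, the transthyretin made by choroid plexus, stood at 3.35, 0.316 and 0 CPM in A1G tumours and 2701, 37.99 and 83.9 CPM in cerebellum, where replicate 1 was far above the others (log2 -9.55). Of 6 choroid plexus genes 2 were lower and 0 higher. Lower choroid plexus genes numbered 1 without A1G replicate 1, A1G replicate 2, A1G replicate 3 or cerebellum replicate 1. Of 7 ependymal genes 5 were lower and 0 higher (median log2 -2.80, or -2.22 with members without a fragment at their bound). The ependymal median ran from -3.70 without A1G replicate 3 to -1.57, -1.82 and -1.51 without cerebellum replicates 1, 2 and 3, and was -1.77 with limma and -1.68 at a minimum of 5 CPM. Dnahc11, a dynein of motile cilia, stood at 3.72, 2.53 and 6.24 CPM in tumours against 37.9, 43.5 and 42.4 CPM (log2 -3.32). Lower ependymal genes numbered 3 without A1G replicate 1 or A1G replicate 2 and 1 without cerebellum replicate 1, cerebellum replicate 2 or cerebellum replicate 3. Of 14 meningeal and fibroblast genes 3 were higher and 6 lower, with a median of -0.32 that changed sign without cerebellum replicate 2 and was -0.92 without A1G replicate 3. Lower meningeal genes numbered 3 without cerebellum replicate 3. Of 10 forebrain genes 3 were higher and 1 lower (median 1.21, or 1.87 at a minimum of 5 CPM). Lhx2, a homeobox factor of cortex and hippocampus, had no fragment in cerebellum and stood at 15.6, 5.69 and 16.6 CPM in A1G tumours, at least 16.4-fold higher. Ppp1r1b, which codes for DARPP-32, was the member that fell, at 0.744, 0.316 and 0.832 CPM in A1G tumours against 76.8, 97.4 and 153 CPM (log2 -7.40). Higher forebrain genes numbered 1 without A1G replicate 1 or A1G replicate 3. Ttr gave a log2 change of -12.09 without A1G replicate 1. Ttr gave a log2 change of -5.61 without cerebellum replicate 1.

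The equipment of the mature synapse was lower across lists. Of 26 synaptic vesicle and release genes 20 were lower and 1, again Slc17a6, higher (median log2 -2.44). Of 30 glutamate receptor and scaffold genes 19 were lower and 0 higher (median -2.04), and of 13 GABA receptor genes 9 and 0 (median -2.63). Snap25, of the fusion machinery, stood at 164, 169 and 298 CPM in A1G tumours and 3535, 2523 and 1958 CPM in cerebellum (log2 -3.67). Slc17a7, the vesicular glutamate transporter of mature granule neurons, stood at 9.67, 40.2 and 27.1 CPM against 310.5, 339 and 643 CPM (log2 -4.07), opposite in direction to Slc17a6. Grin2a, the NMDA receptor subunit that replaces the early one, stood at 1.12, 2.53 and 5.83 CPM against 63.6, 85.8 and 99.6 CPM (log2 -4.73), while the early subunit gene Grin2b was not called. Grin2a gave a log2 change of -5.44 without A1G replicate 3.

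Genes of excitability fell alongside. Of 31 voltage-gated channel genes 20 were lower and 1, Cacna2d1, higher (median log2 -2.25), and of 14 ion pump and transporter genes 12 were lower and 0 higher (median -2.36). Cacna2d2, an auxiliary calcium channel subunit of Purkinje cells, stood at 7.44, 9.49 and 12.9 CPM against 131, 149 and 215 CPM (log2 -4.05), and its paralog Cacna2d1 at 499.8, 429 and 715 CPM against 109, 90.99 and 120.5 CPM (log2 2.36). Slc12a5, the chloride exporter that makes GABA inhibitory in mature neurons, stood at 17.1, 13.9 and 27.5 CPM against 408, 420.4 and 505 CPM (log2 -4.51). Atp1b1, a sodium pump subunit, stood at 26.4, 33.5 and 45.4 CPM against 744, 801 and 1206 CPM (log2 -4.71).

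The neuronal cytoskeleton changed in its make-up, with 5 of 19 genes higher and 6 lower. Nefl, the light neurofilament subunit of mature axons, stood at 15.99, 3.16 and 17.1 CPM in A1G tumours and 629, 505 and 459 CPM in cerebellum (log2 -5.47). Tubb5, a tubulin of dividing and immature cells, stood at 2141, 3719 and 2139 CPM against 397, 281 and 244 CPM (log2 3.12). The list's median of -0.07 changed sign when the libraries were scaled by their total fragments and when A1G replicate 1 was left out, and was -0.91 without A1G replicate 2.

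Signalling pathways other than Hedgehog showed mixed changes. In the Notch list 7 of 19 tested genes were higher and 2 lower (median log2 0.76), with Dll3, an atypical ligand of neurogenic cells, at 45.7, 43.97 and 9.99 CPM in A1G tumours against 0.265, 0 and 1.004 CPM (log2 6.01) and the effector gene Hey1 at 314, 113 and 153 CPM against 31.3, 44.4 and 45.2 CPM (log2 2.26). Higher Notch genes numbered 4 without A1G replicate 2 and 3 without cerebellum replicate 2. In the Wnt list 5 of 23 were higher and 3 lower, near the shares over all tested genes. Sfrp2, like Sfrp1 a secreted modulator, stood at 154, 19.9 and 144 CPM in A1G tumours and 3.97, 0.613 and 1.81 CPM in cerebellum (log2 5.59), and the ligand Wnt7a, which granule neurons release at synapses, at 5.58, 1.898 and 11.2 CPM against 80.8, 92.5 and 85.3 CPM (log2 -3.81). The general Wnt target genes Axin2 and Lef1 were not called. In the BMP list 1 of 19 was higher, Smad5, and 7 were lower (median -0.66, or -0.02 without cerebellum replicate 2). Id4, an inhibitor of helix-loop-helix factors, stood at 5.58, 6.64 and 4.99 CPM against 123, 95.9 and 79.7 CPM (log2 -4.10). Lower BMP genes numbered 3 without cerebellum replicate 1 and 4 without cerebellum replicate 3. Wnt7a gave a log2 change of -4.52 without A1G replicate 3. Sfrp2 gave a log2 change of 6.31 without cerebellum replicate 1. Dll3 gave a log2 change of 7.53 without cerebellum replicate 3.

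Growth factor genes were higher in 7 and lower in 9 of 28 cases, 25.0% and 32.1% against 14.4% and 15.9% of all tested genes. Ngfr, the low-affinity neurotrophin receptor p75, stood at 59.9, 31.95 and 61.2 CPM in A1G tumours and 3.71, 4.902 and 6.83 CPM in cerebellum (log2 3.29). The ligand gene Bdnf stood at 1.86, 0.633 and 0.416 CPM against 33.9, 30.03 and 34.5 CPM (log2 -5.03). Fgfr3, a receptor of astrocytes, stood at 0, 4.43 and 7.49 CPM against 79.5, 74.1 and 61.8 CPM (log2 -4.18). Bdnf and Fgfr3 gave log2 changes of -5.83 and -3.58 without A1G replicate 1. Fgfr3 gave a log2 change of -4.92 without A1G replicate 3.

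Genes of migration and guidance moved both ways. Of 28 chemokine, adhesion and migration genes 2, Cxcr4 and Cdh4, were higher and 8 lower (median log2 -0.69). The ligand gene Cxcl12 was not called. Cdh18, a cadherin of neurons, stood at 16.4, 31.3 and 24.6 CPM in A1G tumours and 213, 245 and 193 CPM in cerebellum (log2 -3.17). Of 34 guidance genes 8 were higher and 6 lower, 23.5% and 17.6%, not far from the shares over all genes. Dcc, the netrin receptor, stood at 941, 770.3 and 716 CPM against 9.802, 7.66 and 12.9 CPM and rose (log2 change 6.31, SE 0.37, adjusted p = 9.47e-06). Sema3a, a repellent, stood at 3.72, 4.43 and 7.91 CPM against 48.5, 46.3 and 43.98 CPM (log2 -3.12). Higher guidance genes numbered 5 without cerebellum replicate 2.

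Of 32 matrix genes 9 were higher and 4 lower (median log2 0.25), 28.1% and 12.5% against 14.4% and 15.9% of all tested genes. Lama5, a laminin chain, stood at 91.8, 355 and 42.5 CPM in A1G tumours, highest in replicate 2, and 6.36, 6.13 and 8.63 CPM in cerebellum (log2 4.52), whereas Col1a1, a fibrillar collagen, stood at 16.4, 6.96 and 7.08 CPM against 65.2, 86.4 and 69.3 CPM (log2 -2.86). Higher matrix genes numbered 5 without A1G replicate 1 and 4 without cerebellum replicate 2. Of 22 genes of mesenchymal transition and matrix proteolysis 7 were higher and 3 lower (median 0.61), shares of 31.8% and 13.6%. Mmp2, a gelatinase, stood at 26.8, 21.5 and 9.57 CPM against 1.59, 5.51 and 3.01 CPM (log2 2.52), and the protease inhibitor gene Timp4, also made by astrocytes, at 17.1, 9.49 and 9.57 CPM against 125, 98.7 and 88.2 CPM (log2 -3.10). Higher genes on that list numbered 4 without cerebellum replicate 1, cerebellum replicate 2 or cerebellum replicate 3. Lama5 gave a log2 change of 3.25 without A1G replicate 2.

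The primary cilium, on which Smo acts, was represented by 30 tested genes, of which 6 were higher and 0 lower (median log2 0.16). Among all tested genes 14.4% were higher and 15.9% lower, so the higher share of this list was not far from that background. Evc and Evc2, partners that bind Smo at the base of the cilium, rose most. Evc stood at 69.2, 35.7 and 28.3 CPM in A1G tumours and 7.68, 6.13 and 5.02 CPM in cerebellum (log2 2.82). Evc2 stood at 52.8, 66.8 and 34.1 CPM against 6.09, 8.27 and 9.04 CPM (log2 2.71). Among the intraflagellar transport genes Ift140 stood at 111, 132 and 109.9 CPM against 30.2, 39.2 and 39.96 CPM (log2 1.69). Higher cilium genes numbered 3 without cerebellum replicate 1 or cerebellum replicate 2.

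Immediate early and heat shock genes, which can respond to handling of tissue, were higher in 2 and lower in 4 of 21 cases (median log2 -0.38), again near the shares over all genes. Fos stood at 5.21, 2.53 and 4.99 CPM in A1G tumours and 8.21, 49.02 and 60.8 CPM in cerebellum (log2 -3.22), with cerebellum replicate 1 near the tumours. Egr2 stood at 13.4, 4.75 and 17.5 CPM against 1.59, 0.306 and 2.01 CPM (log2 3.09). Of 21 noncoding RNAs 4 were higher and 4 lower, not far from the shares over all tested genes. Miat, a nuclear noncoding RNA, stood at 2143, 902 and 2635 CPM in A1G tumours and 17.8, 18.7 and 14.5 CPM in cerebellum and rose (log2 change 6.80, SE 0.51, adjusted p = 2.37e-05). Rian, of the imprinted Dlk1-Dio3 region, stood at 10.8, 11.4 and 21.6 CPM against 350.5, 429 and 195 CPM (log2 -4.48), and Meg3 and Mirg of the same region fell too. Of 16 genes often used as references 5 were higher and 2 lower (median 0.58), 31.2% and 12.5% against 14.4% and 15.9% of all tested genes. Gapdh, Hprt and Tbp were not called. Higher reference genes numbered 2 without A1G replicate 1 or cerebellum replicate 2 and 3 without A1G replicate 3 or cerebellum replicate 1.

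The genes with the largest fold changes came from the groups already described and from a few others. Kntc1, a kinetochore protein, had no fragment in cerebellum and stood at 167, 49.98 and 114 CPM in A1G tumours, at least 143-fold higher. Pif1, a DNA helicase, stood at 70.7, 17.4 and 46.2 CPM in A1G tumours, likewise without any in cerebellum, which is at least 57.96-fold higher. Pbk, a mitotic kinase, stood at 42.8, 10.8 and 26.6 CPM, at least 34.6-fold higher. All 3 serve dividing cells. Draxin, a repellent guidance protein, stood at 989, 314 and 678 CPM against 1.59, 0.613 and 1.004 CPM and rose (log2 change 9.21, SE 0.62, adjusted p = 1.46e-05). At the other end Gjb2, a gap junction protein, had no fragment in any tumour against 8.48, 13.2 and 17.1 CPM in cerebellum, at least 11.7-fold lower. Bc1, a brain cytoplasmic RNA of neuronal dendrites, stood at 0, 0.949 and 0.832 CPM against 105, 108 and 45.2 CPM (log2 -7.07), and Krt25, a keratin, had no fragment in any tumour against 20.1, 10.7 and 11.4 CPM, at least 12.8-fold lower.

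**Figure D4:**
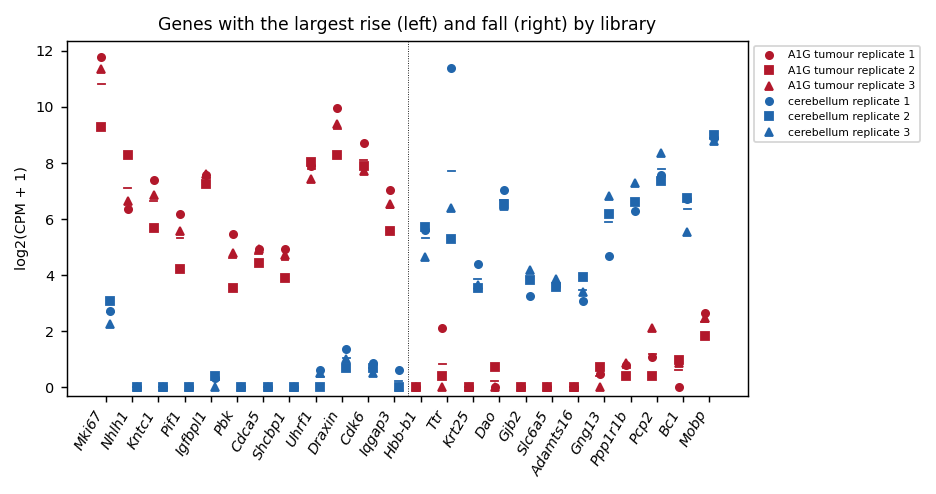
Level in each library as log2(CPM + 1) of the 12 genes with the largest rise (left of the dotted line) and the 12 with the largest fall among those past the threshold, without overlap and with at least 10 CPM in the higher group. A1G tumours are red and cerebellum blue, with a symbol per replicate and a line at the mean of the group's log values, and Ttr shows a single cerebellum library far above the others.

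On the CPM scale, which is not per length and favours long and abundant RNAs, other genes stood out. Eef1a1, the translation elongation factor, stood at 3596, 3506 and 3158 CPM in A1G tumours and 1337, 945 and 683 CPM in cerebellum (log2 1.79). Nfib, a nuclear factor I gene of developing granule neurons, stood at 2728, 1724 and 2955 CPM against 292, 316 and 383 CPM (log2 2.90). Itpr1, the calcium release channel of Purkinje cells, stood at 444, 278 and 556 CPM against 6821, 5449.9 and 5537 CPM (log2 -3.80). Eef1a1 and Nfib were high and Itpr1 low in all tumours. Sparcl1, a secreted matrix protein of astrocytes, stood at 289, 230.3 and 218 CPM against 5164, 4520.0 and 4115 CPM (log2 -4.23). Mbp, the myelin basic protein, stood at 236, 251 and 191 CPM against 4572, 4207 and 4680.1 CPM (log2 -4.31). No tumour overlapped a cerebellum in these genes.

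Few genes passed as different between A1G and Ptch1 tumours. In a fit of all 9 libraries, 2 of 15060 genes passed between A1G and Ptch1 tumours (0.0133%), while 1599 (10.6%) had an unadjusted p under 0.05. DESeq2 called 154 and edgeR without a filter on low counts 81. With 1 library left out the count was 0 (Ptch1 replicate 2), 3 (Ptch1 replicate 1), 4 (Ptch1 replicate 3 or any single A1G tumour) or 2 (any single cerebellum). The 2 genes that passed edgeR with all libraries were Calb1 and Arhgef33, given here on the scaling of all 9 libraries. Calb1, the calcium buffer calbindin of Purkinje cells, stood at 13.9, 23.97 and 13.9 CPM in A1G tumours, at 1.83, 1.02 and 0.763 CPM in the Ptch1 tumours and at 723, 742 and 544 CPM in cerebellum. A1G tumours thus lay 3.79 above Ptch1 tumours (log2 difference, SE 0.40, adjusted p = 0.00626) and were themselves far below cerebellum. Arhgef33, of the guanine nucleotide exchange factor family, stood at 17.2, 8.095 and 18.8 CPM, 0.688, 0.9097 and 0 CPM and 497, 355 and 334 CPM in the same order, a log2 difference between tumour kinds of 4.40 (SE 0.53, adjusted p = 0.0145). Of 243 genes chosen by the naming rule 0 passed edgeR's test between the tumour kinds, 45 had an unadjusted p under 0.05, DESeq2 called 13 of them and limma 0, and the smallest adjusted p of the main test among them was 0.145, for Cacna2d2. Without a filter on low counts 6 of them passed, and 1 did without Ptch1 replicate 1. Calb1 is on the Purkinje list and Arhgef33 is not. Of the 20 other genes on the Purkinje list, all tested between the tumour kinds, 15 had a log2 difference above 0 (51.2% did over all tested genes), 8 had all A1G above all Ptch1 tumours (6.54% over all tested genes), 11 had an unadjusted p under 0.05 and 0 passed edgeR's adjusted test. Their summed level was 997, 784 and 1183 CPM in A1G tumours, against 696, 671 and 702 CPM in Ptch1 tumours and 16009, 12471 and 12181 CPM in cerebella. A large part of the sum was Itpr1 alone, at 436, 274 and 545 CPM in A1G tumours and 150, 176 and 241 CPM in Ptch1 tumours. Car8 stood at 29.97, 14.9 and 54.7 CPM in A1G tumours against 9.403, 0.341 and 0.763 CPM in Ptch1 tumours. Pcp2 had no fragment in any Ptch1 tumour and stood at 1.097, 0.311 and 3.26 CPM in A1G tumours. Of 15 interneuron genes 11 had a difference above 0 and 5 had all A1G above all Ptch1 tumours, and their sum was 140.4, 182 and 209.7 CPM against 129, 174 and 113 CPM. Among 23 mature granule genes 17 had a difference above 0 and 0 had all A1G above all Ptch1 tumours. For unipolar brush cells 3 of 7 tested genes had a difference above 0, and 1 of 8 listed had all A1G above all Ptch1 tumours. The part of these markers in the difference of Calb1 and Arhgef33 was not tested. A p above the threshold does not show that the tumour kinds had the same level. Atoh1 stood at 647, 385 and 293 CPM in A1G tumours against 279, 332 and 403 CPM in Ptch1 tumours on that scaling, and the groups overlapped.

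Changes were uneven over chromosomes. For each library the median log2 level of a chromosome's genes was taken relative to the cerebellum mean and to the library's own median over autosomal genes. The cerebella stayed within 0.07 of 0. They were set against their own mean, which draws them to 0, so they give no measure of spread for the tumours. Chromosome 6, on which Atoh1 and Ccnd2 lie, stood at 0.31, 0.34 and 0.15 in the A1G tumours, 0.45, 0.37 and 0.60 in Ptch1 tumours and 0.05, 0.01 and -0.07 in cerebella, and 21.7% of its 667 tested genes were called higher in A1G tumours. Chromosome 17 stood at 0.02, 0.52 and -0.01 in A1G tumours and 0.04, 0.47 and 0.09 in Ptch1 tumours, with replicate 2 the highest in both groups. Chromosome 14 stood at 0.01, 0.00 and 0.24 in A1G tumours and 0.46, 0.13 and -0.01 in Ptch1 tumours, highest in A1G replicate 3 and in Ptch1 replicate 1. Chromosome 18 stood at -0.10, 0.33 and -0.03 in A1G tumours, highest in replicate 2, and -0.09, -0.15 and -0.07 in Ptch1 tumours. Chromosome 19 was below 0 in every tumour, at -0.22, -0.14 and -0.18 in A1G tumours and -0.29, -0.30 and -0.24 in Ptch1 tumours. Chromosomes 2, 7 and 15 were also below 0 in every tumour, and chromosomes 10 and 13, like chromosome 6, above 0. The tumours and the cerebella differ in strain, so that strain and tissue cannot be told apart in these values either.

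**Figure D5:**
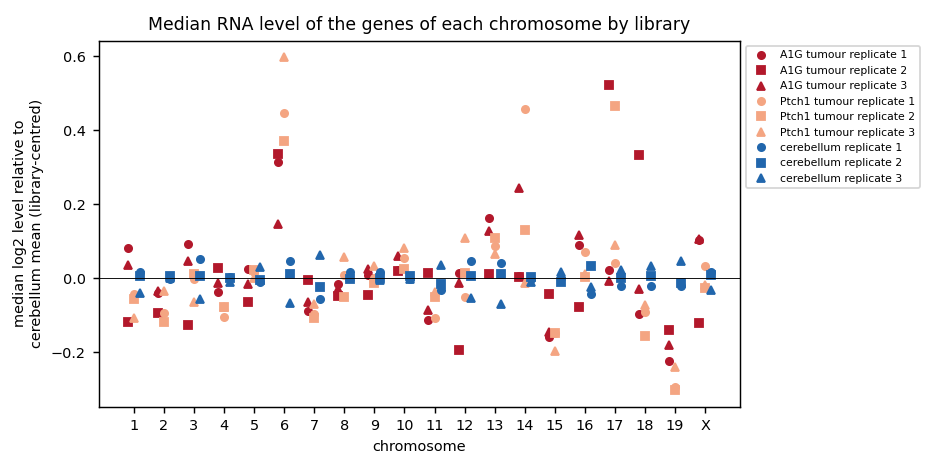
Median over the tested genes of each chromosome of the log2 level relative to the cerebellum mean, after centring each library on its median over autosomal genes. A1G tumours are red, Ptch1 tumours light and cerebella blue, with a symbol per replicate. The cerebella stay within 0.07 of 0, being set against their own mean. Chromosomes 6, 10 and 13 are above 0 in all tumours.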

How the data were processed

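Total RNA of 3 A1G tumours, 3 Ptch1 tumours and 3 cerebella was depleted of ribosomal RNA and sequenced on the Ion Proton, per the labels' protocols. Per the file headers each deposited table gives raw fragments per gene, which the authors left unnormalised and which are expected counts, since 1153 to 1423 genes per library of the 6 compared held a value more than 1e-06 from a whole number. The same tables hold the authors' scaled fragments (a signal) and FPKM, which were not used. The submitters' processing notes name mm10 and Bowtie 0.12.2. The gene annotation and the program that made the estimates are not given in the sources used here.

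Raw fragments of all rows were rounded, scaled anew over the 6 libraries by TMM and tested with edgeR 4.0.16 (R 4.3.3) in genes with at least 1 CPM in at least 3 libraries. A floor of 3 fragments per library stands for genes without a fragment in a group. At 2350941 to 5300936 fragments a library, a gene of 1 CPM rests on a few fragments. Replicates of a group differed beyond sampling noise in every pair (chi-square per degree of freedom 10.9 to 43.5). Limma 3.58.1, DESeq2 1.42.0, other scalings and filters, a fit of all 9 libraries, a replicate block and leaving out each library were the alternatives. Gene coordinates and promoter windows come from RefSeq GRCm38.p6, in which 21527 symbols of the files were found. Of the genes on 60 lists 7 were not found and 9 were matched by an older name.

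The genes on the lists, the tests and the naming rule were chosen with earlier results of these data known. Named were 12 fixed Hedgehog and cell cycle genes, the 12 largest log2 changes each way among called genes without overlap and with at least 10 CPM in the higher group, the 6 largest CPM differences each way, and up to 4 called members of each list with the largest changes, or the 2 most abundant members where none was called. From these some are described, and the results of a few genes are not reported here. Genes named after their values were seen are Mcm6, Cdk1, Xist, Calb1, Arhgef33, members that moved against their list and members said not to be called.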

Additional observations from a re-analysis of the deposited data

Results flagged for a closer look

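Calb1 and Arhgef33 are the genes that passed the direct test between the tumour kinds (edgeR with all libraries, adjusted over 15060 genes). Without Ptch1 replicate 2 no gene passed, while DESeq2 called 154 genes and edgeR without a filter on low counts 81. Calb1 was 3.79 higher on the log2 scale in A1G tumours than in Ptch1 tumours, with all 3 A1G tumours above all 3 Ptch1 tumours and all 6 below every cerebellum. Arhgef33 was 4.40 higher, again with all 3 A1G tumours above all 3 Ptch1 tumours. Calb1 is on the Purkinje list and Arhgef33 is not. Of the 20 other genes on that list 8 had all A1G above all Ptch1 tumours (6.54% of all tested genes did). The part of these genes in the difference was not tested.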

How the results depend on the processing

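No gene called higher or lower in A1G tumours against cerebellum was called in the opposite direction under any alternative. The counts were 2134 higher and 2312 lower with median-of-ratios scaling, 2394 and 2151 when scaled by total fragments, and 2399 and 2536 with DESeq2. Leaving out 1 library gave 1274 to 2185 genes higher, 1378 to 2493 lower and 2652 to 4351 changed at least 2-fold, the lowest without cerebellum replicate 2. Between A1G and Ptch1 tumours the count was 81 without a filter on low counts, 154 with DESeq2, and 0 to 4 with 1 library left out, against 2 in the main test. The cause of these differences was not tested.

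Of 1719 values of 128 genes under the alternatives, 1702 kept their direction and their side of the threshold, 9 lost the call, 6 gained it and 2 reversed. Those that reversed were Ptch1, at -0.69 without A1G replicate 2 (-0.69 to 0.90 with 1 library left out), and Xist, at -0.93 under limma on log2(CPM + 1), neither of them called. The calls lost were those of Ddx3y and Lyve1. Of 838 counts of list members, 771 stayed within 1.5 times the main count.

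The replicate numbers were shared between groups, but same-numbered libraries did not deviate together (correlations of 0.21, -0.05 and -0.05 between A1G tumours and cerebella), so the numbers were not taken as pairs. With the replicate block 1861 genes were higher, 2222 lower and 4017 changed at least 2-fold, and 2 genes passed between the tumour kinds. A depth of at most 5300936 fragments leaves genes near 1 CPM imprecise, and 3 libraries a group limit small differences.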
